A study of Mus musculus with 2 samples.

Results

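The broad GATA4 peaks were the regions of 1300 bp or more in a list of sites bound by GATA4 in cultured mouse muscle precursors. They were chosen by their width in the authors' deposited peak list, and 726 of 17539 peaks met that rule, or 4.14%. The list came from chromatin immunoprecipitation sequencing (ChIP-seq), in which DNA bound by a protein is recovered with an antibody and sequenced. Per the labels, the cells were proliferating skeletal muscle myoblasts from satellite cells of the mouse stock STOCK Myf5tm1Pas/J, whose name gives a targeted Myf5 allele that both libraries carried. They grew on a collagen coating, in Ham's F10 medium supplied with fetal bovine serum and with bFGF, a growth factor that keeps myoblasts dividing. The ages and number of the animals were not given in the sources used here. A GATA4 library made with a mixture of 3 antibodies and a control IgG library each had 1 sample and no replicate, so nothing was tested between conditions. No value below was computed from the IgG library itself. Whether it served as the control in the peak call, and so shaped the peaks and scores, was not given in the sources used here. Myoblast identity could not be checked by expression, which was not measured.

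GATA4 is a zinc finger transcription factor that binds DNA at sequences with a GATA core, and it is best known for its roles in heart, gut and gonad development. Satellite cells are the stem cells of skeletal muscle, and myoblasts are their dividing progeny. A ChIP-seq peak is a stretch of genome where sequenced fragments pile up above background. Its width reflects the length of the fragments and the spread of binding along the DNA.

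Among the broad peaks, those that covered a RefSeq promoter window could be read base by base. Each window runs from 250 bases before an annotated transcription start site to 50 bases after it, and RefSeq sequences of GRCm38.p6 were used. Shown are the windows of 5 genes of muscle or connective tissue biology that lay wholly inside a broad peak. Capitals mark every GATA core, written GATA on the printed strand or TATC where it lies on the other strand.
Ankrd1: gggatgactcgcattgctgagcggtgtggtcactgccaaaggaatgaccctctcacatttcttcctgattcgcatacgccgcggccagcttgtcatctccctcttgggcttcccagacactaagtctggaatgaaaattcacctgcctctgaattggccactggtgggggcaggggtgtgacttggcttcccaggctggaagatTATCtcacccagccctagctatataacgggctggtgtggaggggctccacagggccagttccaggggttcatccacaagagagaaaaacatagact
Id3: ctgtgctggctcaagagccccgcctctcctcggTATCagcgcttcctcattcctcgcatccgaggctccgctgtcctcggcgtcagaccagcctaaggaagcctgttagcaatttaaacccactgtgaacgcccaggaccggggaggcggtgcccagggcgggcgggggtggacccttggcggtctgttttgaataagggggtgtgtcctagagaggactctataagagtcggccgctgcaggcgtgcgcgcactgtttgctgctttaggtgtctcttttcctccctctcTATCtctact
Mrln: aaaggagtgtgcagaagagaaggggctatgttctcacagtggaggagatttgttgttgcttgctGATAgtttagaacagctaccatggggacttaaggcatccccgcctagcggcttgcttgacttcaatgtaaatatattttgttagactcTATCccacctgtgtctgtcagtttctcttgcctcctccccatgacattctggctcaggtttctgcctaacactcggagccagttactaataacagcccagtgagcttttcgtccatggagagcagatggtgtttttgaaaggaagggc
Lama2: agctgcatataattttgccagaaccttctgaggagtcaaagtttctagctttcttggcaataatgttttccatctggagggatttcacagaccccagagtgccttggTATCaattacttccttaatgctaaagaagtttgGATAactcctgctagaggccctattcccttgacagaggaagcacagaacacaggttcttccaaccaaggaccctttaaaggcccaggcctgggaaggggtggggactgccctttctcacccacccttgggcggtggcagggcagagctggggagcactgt
Vim: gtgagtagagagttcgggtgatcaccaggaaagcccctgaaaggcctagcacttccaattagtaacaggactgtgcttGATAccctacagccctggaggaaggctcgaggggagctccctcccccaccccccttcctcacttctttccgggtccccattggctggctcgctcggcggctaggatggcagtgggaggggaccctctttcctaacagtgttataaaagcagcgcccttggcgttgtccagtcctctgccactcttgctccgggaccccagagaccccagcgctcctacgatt

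The windows lie at chr19:36119795-36120094 (minus strand) for Ankrd1, chr4:136143572-136143871 (plus) for Id3 and chr10:70204414-70204713 (plus) for Mrln. Those of Lama2 and Vim lie at chr10:27616893-27617192 (minus) and chr2:13574061-13574360 (plus). Ankrd1 encodes a cardiac and skeletal muscle ankyrin repeat protein that associates with titin. Its window held 1 GATA core, at position -46 with the start site as 0, and that core is part of TTATCT, the reverse complement of AGATAA. The same window held GGAATG, the letters of a TEAD factor site, at positions -210 and -123. The Id3 window held the same letters on the other strand at -203. They were in 12.8% of windows inside broad peaks, 13.2% of those inside other peaks and 14.7% of all windows. Id3 encodes an inhibitor of myogenic helix-loop-helix factors, and Mrln encodes myoregulin, a small inhibitor of the sarcoplasmic calcium pump. The Id3 window had cores at -217 and 40, and the Mrln window at -186 and -98. The core at 40 in Id3 and the core at -186 in Mrln were each part of a 6-base GATA motif. Lama2, the laminin alpha 2 chain of the muscle basement membrane, had cores at -143 and -110, and Vim, the intermediate filament protein vimentin, had 1 at -172. None of the cores in Lama2 and Vim extended to a 6-base motif.

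The 6-base motifs searched on both strands were AGATAA with its relative ending in G, AGATAG, and the matching motifs that open with T, namely TGATAA and also TGATAG. Each contains the GATA core. Of 78 promoter windows wholly inside broad peaks, 28 held such a motif, or 35.9% (exact 95% interval 25.3% to 47.6%). The share was 23.6% (21.2% to 26.1%) of 1230 windows inside other peaks and 29.8% of all 32851 windows in the table. The interval for the broad peaks thus included the share of all promoters, and its lower end lay within the interval for the other peaks. Without the 4 groups of at least 5 neighbouring broad peaks described below, 28 of 71 windows held the motif, or 39.4% (28.0% to 51.8%). This interval no longer overlapped that of the other peaks, but it still included the 29.8% of all windows. The exclusion was chosen after seeing the data and changed the broad side alone. It removed only windows without the motif, so the share could only rise and no conclusion is drawn from it. Some windows of the same gene overlap, so the intervals treat windows as independent where they are not. Counted by gene over all broad peaks, 25 of the 71 genes with a wholly covered window held the motif. The GATA core alone was in 59.0% of the windows in broad peaks, in 50.2% of those in other peaks and in 57.9% of all windows. The GC box GGGCGG, typical of promoters rich in CG, was in 59.0% of windows in broad peaks and in 59.9% of those in other peaks, against 35.7% of all windows. These windows had a median G or C content of 59.5% in broad peaks and 60.3% in other peaks, against 52.7% over all promoters. Intervals here and below are Clopper-Pearson intervals and cover counting error only. A match describes letters, and none of these differences was tested.

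Width and score came from the same peak call, so the score describes the members and is no independent evidence. The median width of the broad peaks was 1446 bp (quartiles 1357 and 1589 bp), and the widest measured 2990 bp. Together they covered 1.10 Mb, or 8.16% of all bases in peaks. Their median score was 196 (quartiles 145 and 267, range 52.4 to 861), against 97.0 for the 16813 other peaks. Peaks of 1300 bp or more were 0.176% of peaks with a score under 75, 3.42% of those from 100 to 150 and 37.6% of those of 300 or more. Among the 100 highest scores in the list, 53 belonged to broad peaks. Spearman's rho between them was 0.38 over the 726 broad peaks and 0.01 over the others, as a description of 1 library in which both values share the same reads.

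The scores could be read as numbers of sequenced tags. For 715 of the 726 broad peaks the score equalled, to within 0.02, minus 10 times the log10 of the upper tail of a Poisson distribution for a whole number of tags. The mean of that distribution was 0.846 tags per kb times the peak's width in every case. Scores that lay 1 tag apart at the same width differed by at least 10 units, so the match was far finer than the steps. The same held for 12136 of 12162 other peaks of 600 bp or more and for 2 of 4651 narrower ones. If the tail was taken to include the tag number itself, each number below is higher by 1. Read in this way, a broad peak held a median of 21 tags (quartiles 17 and 27, range 9 to 68), where 1.22 were expected at the median width. Other peaks of 600 bp or more held a median of 10. Per kb the medians were 14.2 tags in broad peaks and 11.9 in those other peaks. A peak of 15 tags has an exact Poisson 95% interval of 8.4 to 24.7, so many of the differences in score between members lie within counting error. Whether duplicate reads were removed was not given in the sources used here.

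**Figure D1:**
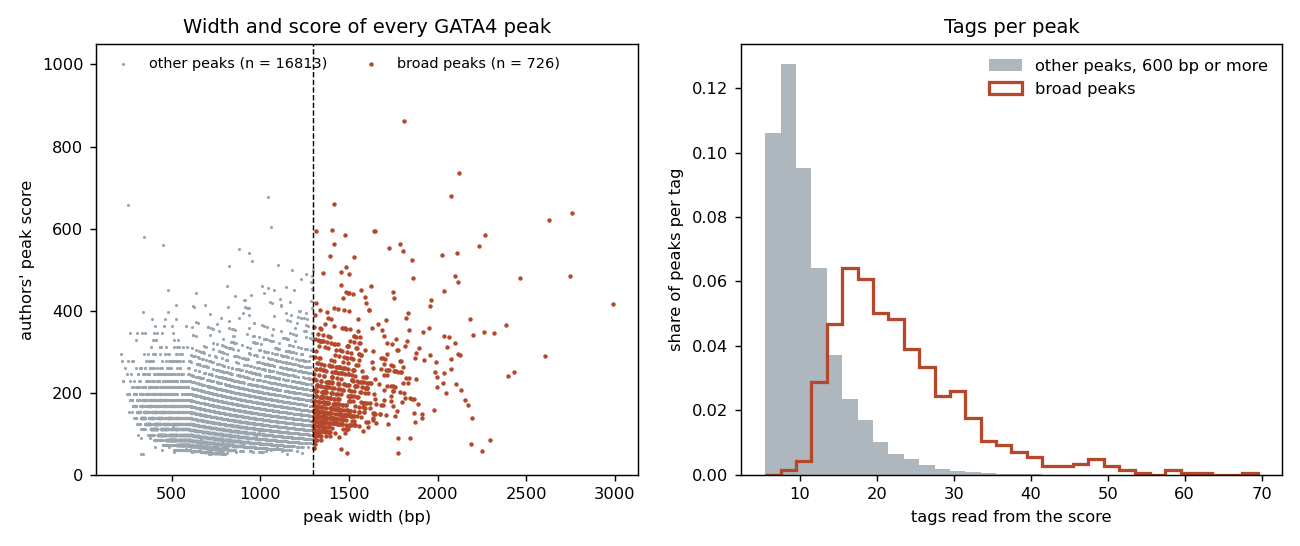
Left, width in bp against the authors' score for all 17539 peaks, with the 1300 bp threshold dashed and the 726 broad peaks in red. Right, distribution of tags read from the score, as a share of peaks per tag, in broad peaks and in other peaks of 600 bp or more. From 600 bp the points lie on sloping lines, 1 line per whole number of tags, narrower peaks lie on flat lines, and the broad peaks centre on 21 tags against 10.

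The 11 broad peaks whose scores were not read as whole tags had scores between 52.4 and 158. Among the 5 lowest-scoring members were peaks in Popdc3 (score 52.4), at an end of Saal1 (53.9), 24.4 kb from Adamts6 (58.0) and in Mettl11b (65.6). Of these the Mettl11b peak alone was read, at 9 tags. Popdc3 encodes a Popeye domain membrane protein of striated muscle.

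Just inside the threshold lay peaks of 1300 bp in Gm30346 (score 131), 1301 bp in Syne1 (233) and 1301 bp in Eya4 (143). Just outside lay peaks of 1299 bp in Mob1b (score 233), in Gm20125 (180) and 51.9 kb from Gm52332 (119). The tags of these peaks ran from 15 to 23 on the inner side and from 14 to 23 on the outer side, so the threshold cut through peaks of like strength.

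The widest peak, of 2990 bp, held 46 tags and overlapped no annotated gene. It lay at chr1:87077021-87080010, 1.75 kb from the noncoding gene Gm29371. The second, of 2756 bp, covered the Ankrd1 start site whose sequence is printed above. Next came peaks in the gene models Gm36327 (2745 bp, 50 tags) and St3gal1 (2630 bp, 59 tags), a sialyltransferase gene. The Fstl1 peak measured 2605 bp with 34 tags and lay inside the gene for a secreted follistatin-like glycoprotein. Naip1, a sensor of bacterial protein in innate immunity, held a peak of 2465 bp with 48 tags. A peak of 2431 bp was centred 1.76 kb beyond Vmp1, a gene of autophagy. Arid5b, which encodes an AT-rich DNA binding protein, had 2 of the 20 widest peaks. They measured 2398 bp across its lower-coordinate end (29 tags) and 2198 bp inside it (36 tags).

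The other members of the 20 widest included 5 within genes: 1700025G04Rik (2317 bp, 37 tags), Gm52861 (2298 bp, score 84.0), Mrps27 (2195 bp, 19 tags), Rere (2185 bp, 39 tags) and Specc1 (2174 bp, 22 tags). Mrps27 is a mitochondrial ribosomal protein gene and Rere encodes a nuclear receptor coregulator. A peak of 2234 bp with 52 tags lay inside Mbp, known for myelin basic protein. The rest lay outside genes, nearest to Gm40601 at 113 kb (2387 bp, 39 tags), Gm31330 at 65.3 kb (2268 bp, 54 tags), Gm40451 at 30.2 kb (2262 bp, 37 tags), Adamts6 (2252 bp, score 58.0) and Gm52862 at 2.02 kb (2190 bp, score 74.7). Width alone therefore brought together peaks with scores from 58.0 to 637.

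The highest score, 861 for 68 tags (95% interval 52.8 to 86.2), belonged to a peak of 1809 bp inside Oprm1, which encodes the mu opioid receptor. It was followed by peaks in Susd1 (736, 63 tags) and 61.5 kb from Gm34297 (680, 59 tags), and by one 31.0 kb from 4930467E23Rik (660, 52 tags). The remaining 6 of the top 10 were the Ankrd1 start site (637, 61 tags), St3gal1 (620, 59 tags), Syne1 (597, 48 tags), a site 43.2 kb from Gm40764 (595, 50 tags), Gm13289 (595, 50 tags) and Gm32333 (593, 47 tags). Syne1 encodes nesprin-1, which links the nucleus to the cytoskeleton in muscle. The intervals of all of these overlapped each other, from 34.5 to 62.5 tags for the tenth.

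Most broad peaks lay away from gene ends. Counting both ends of protein coding and of lncRNA genes, 110 of 726 centres lay no farther than 1 kb from one, or 15.2% (12.6% to 17.97%), against 13.7% (13.2% to 14.2%) of other peaks. Among peaks with a score of 150 or more the shares were 11.7% (9.06% to 14.8%) of broad and 7.53% (6.64% to 8.50%) of other peaks, and these intervals did not overlap. A further 334 (46.0%) lay inside a gene and 282 (38.8%) outside genes, against 51.5% and 34.8% of other peaks. Of 701 broad peaks on the chromosomes covered by the promoter table, the centre of 11.0% was within 1 kb of a start site, against 10.6% of other peaks. Broad peaks at gene ends had a median score of 155, below the 212 of those outside genes. In the other peaks the same medians were 84.5 and 102. Beyond 10 kb from any start site lay 487 of the 701 broad peaks, with a median score of 205. The same held for 11330 of 16287 other peaks, with a median score of 99.4. Within 10 kb of a start site lay 30.5% of broad and 30.4% of other peaks, so the shares were alike.

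Within 5 kb of 285 broad peaks, or 39.3% (35.7% to 42.9%), there was another peak, measured edge to edge. The share was 27.3% (26.6% to 28.0%) for the other peaks. Among peaks with a score of 150 or more it was 40.2% (36.0% to 44.6%) of 522 broad peaks and 29.7% (28.2% to 31.4%) of 3187 others. By width the share went from 24.2% under 500 bp to 32.7% from 1100 to under 1300 bp, 37.6% from 1300 to under 1500 bp and 43.9% from 1500 to under 1800 bp, and it was 37.0% (26.6% to 48.5%) in the 81 peaks of 1800 bp or more. The difference between broad and other peaks was not tested.

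**Figure D2:**
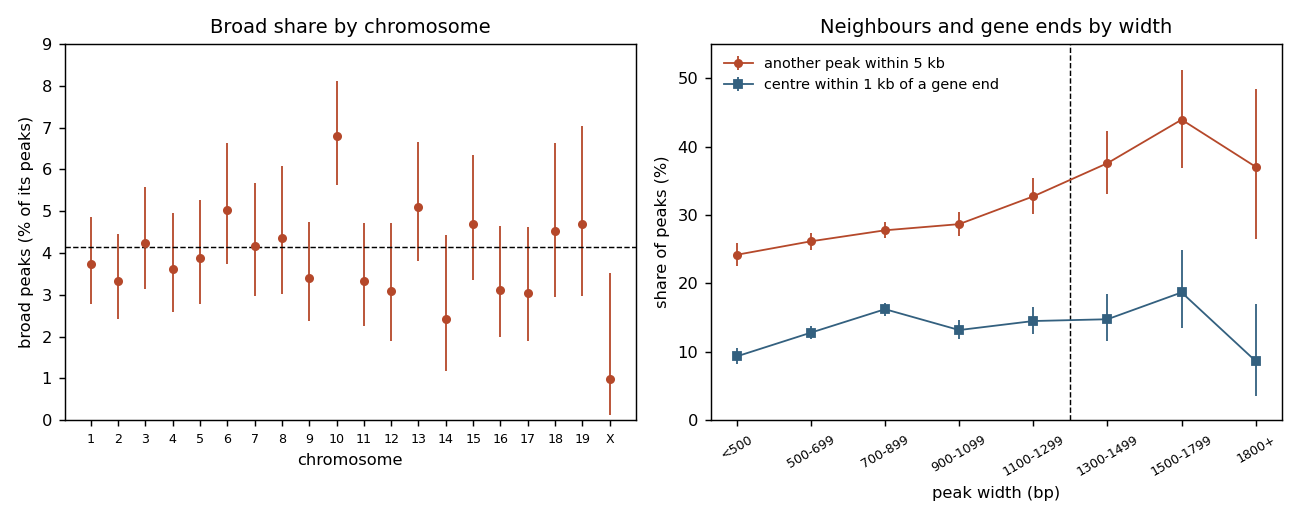
Left, broad peaks as a percentage of each chromosome's peaks, with exact 95% intervals and the value of the whole list (4.14%) dashed. Right, by width class, the percentage of peaks with another peak within 5 kb and with a centre within 1 kb of a gene end, with exact 95% intervals and the 1300 bp threshold dashed. Chromosome 10 stands at 6.79%, and in the classes under 500 bp, from 1500 to under 1800 bp and from 1800 bp the neighbour share is 24.2%, 43.9% and 37.0% and the gene end share 9.34%, 18.7% and 8.64%.

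Chromosome 10 carried 111 broad peaks, or 15.3% of all of them (12.7% to 18.1%), against 9.06% (8.63% to 9.51%) of the other peaks. Broad peaks made up 6.79% (5.62% to 8.12%) of its 1635 peaks and 3.87% (3.57% to 4.18%) of the peaks elsewhere. Among peaks with a score of 150 or more, chromosome 10 held 15.5% (12.5% to 18.9%) of the broad ones and 11.7% (10.6% to 12.9%) of the others. These 2 intervals overlapped. Chromosome 13 had 51 broad peaks (5.10% of its peaks) and chromosome 6 had 48 (5.04%). Chromosome 14 had 10 (2.43%), chromosome X 2 of 202 (0.990%) and chromosome Y none of 5. The cause of the chromosome 10 share was not tested.

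A transcription start site lay inside 73 broad peaks, or 10.4% (8.25% to 12.9%), against 8.31% (7.89% to 8.75%) of other peaks. With a score of 150 or more the shares were 8% (5.78% to 10.7%) and 3.66% (3.03% to 4.39%). A wide interval takes in more positions. With a window of the same size for all peaks, the centre was within 300 bp of a start site for 6.28% (4.60% to 8.33%) of broad peaks and 7.46% (7.06% to 7.87%) of others. The 73 peaks held start sites of 79 genes, 64 of them protein coding and 15 lncRNA genes. Their scores ran from 96.2 to 637 with a median of 155, and their tags from 12 to 61. The centre lay upstream of the nearest start site in 47 peaks (64.4%) and downstream in 26, at a median of -93 bp. For the 1354 other peaks with a start site the median was -25.5 bp, and 55.8% had their centre upstream. No interval was computed for these shares, and the difference was not tested. A wider peak can hold a start site farther from its centre. Chromosome 10 held 19 of the 73, and the matching share of other peaks with a start site is not given here.

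**Figure D3:**
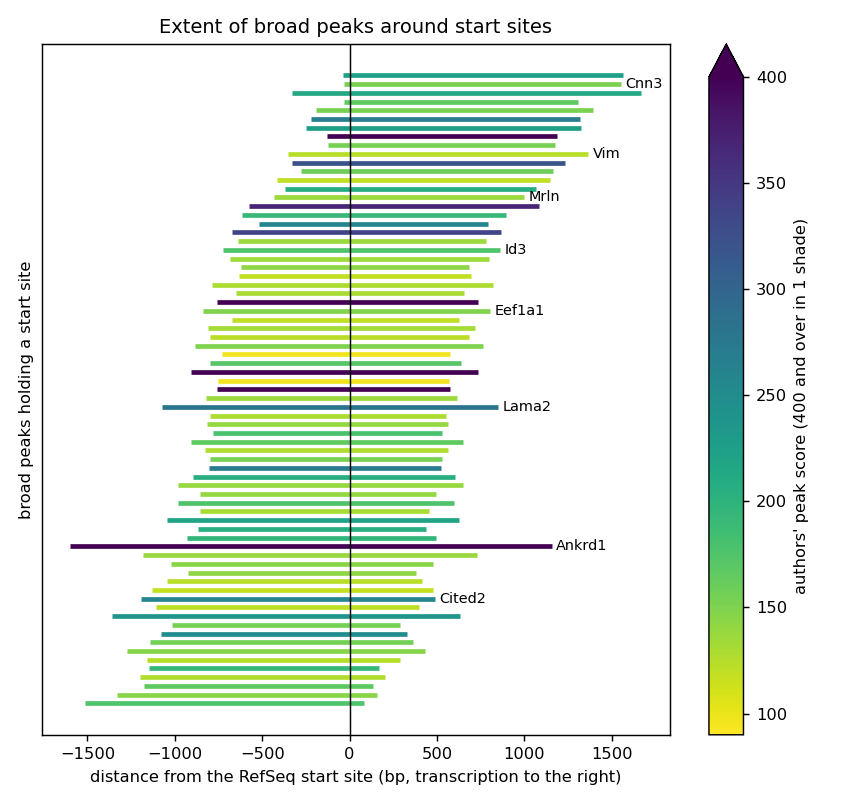
Each line is 1 of the 73 broad peaks that hold a RefSeq start site, drawn from its upstream to its downstream edge in bp around the start site (0) and ordered by the position of its centre. Colour gives the authors' score. The Ankrd1 peak spans 1598 bp upstream to 1157 bp downstream. The centre is upstream in 47 of the 73 peaks (64.4%), against 55.8% of other peaks with a start site, a difference that was not tested.

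Among these start sites were those of the ribosomal protein genes Rps12 (score 205) and Rps15 (131), the elongation factor gene Eef1a1 (149), Xpo1 for nuclear export (155), and the RNA binding protein genes G3bp1 (179), Ptbp1 (146) and Hnrnph3 (220). The actin capping protein gene Capza1 (128) and the chaperonin gene Cct3 (134) each shared a peak with a neighbouring gene, as Hnrnph3 did with Pbld2. Transcription regulators were Cited2, a coactivator binding protein (258), Jmjd1c, a histone demethylase family gene (259), and Id3 (176). Muscle and cytoskeleton genes were Ankrd1 (637), Lama2 (280), Pdlim3, a Z-disc protein (172), Cnn3, a calponin (152), Mrln (136), Inf2, a formin (132), and Vim (124). These genes were picked from the 73 peaks after their values were seen and stand as examples.

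Across 18 gene lists with 453 distinct genes, 23 genes, or 5.08% (3.25% to 7.52%), had a broad peak within 10 kb of an end. Over all 21887 protein coding genes the share was 1.43%, or 312 genes. Peaks of any width were also more frequent there: 202 of the listed genes (44.6%) had one, against 26.2% of all protein coding genes. Of the genes with any peak, 11.4% of the listed ones and 5.44% of all protein coding ones had a broad peak. The lists were drawn up for muscle biology with results of these data known, so their share is a description. Inside a gene but over 10 kb from its ends, a broad peak lay in 17 further listed genes.

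Among myogenic regulators, 2 of 25 had a broad peak within 10 kb. Myod1, the master regulator of the muscle lineage, had a peak of 1559 bp across its higher-coordinate end with a score of 227 and 24 tags. Beyond the lower-coordinate end lay 3 more broad peaks, centred 22.5, 25.7 and 38.7 kb away with 20, 25 and 15 tags. The 4 Myod1 peaks overlapped in their counting intervals. The Id3 peak reached from 722 bp upstream to 863 bp downstream of the start site, with 20 tags. Eya4, a transcriptional coactivator with a phosphatase domain, had a broad peak of 16 tags 74.8 kb inside the gene.

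Ankrd1 had more broad peaks within 10 kb of its ends than any other listed gene. The peak on its start site (chr19:36118687-36121442) held 61 tags (46.7 to 78.4). Those centred 9.50 kb upstream and 8.98 kb downstream held 40 (28.6 to 54.5) and 26 (17.0 to 38.1). The start site peak and the downstream peak did not overlap in their counting intervals. They measured 2756 and 1836 bp, and these tag numbers are not adjusted for width. No narrower peak lay within 30 kb. In the sarcomere list 3 of 40 genes had a broad peak within 10 kb, the others being the thin filament gene Tpm1 (score 151, 17 tags) and the Z-disc gene Actn3 (118, 14 tags). The actin crosslinking gene Palld had 2 broad peaks deep inside (196 and 284), and Pdlim5 had 1 (177).

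**Figure D4:**
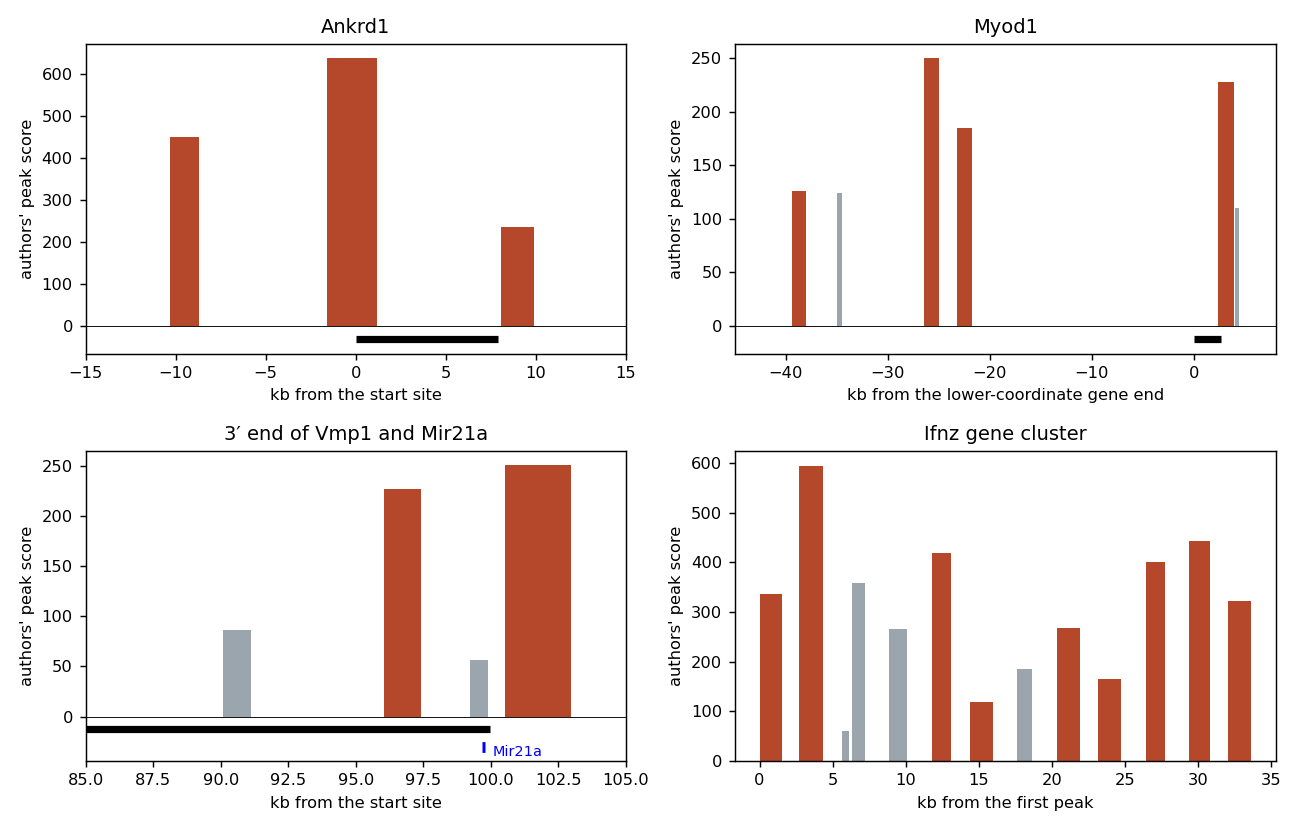
Peaks at Ankrd1, around Myod1, at the 3′ end of Vmp1 with the Mir21a hairpin, and across the Ifnz gene cluster, with position in kb and the authors' score as bar height. Red bars are broad peaks, grey bars other peaks, black lines the genes. The Ankrd1 start site peak stands highest of its 3, and the red bars in the Ifnz cluster run from 119 to 595.

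Extracellular matrix genes with a broad peak within 10 kb were Lama2 and Sparc, 2 of 37. Lama2 held 3 of its 18 peaks as broad ones. The start site peak, of 1925 bp, had 30 tags, and those 122 and 238 kb into the gene had 27 and 22, within counting error of each other. Sparc, a collagen binding glycoprotein gene, had a peak of 17 tags 8.71 kb from its end. Inside the collagen genes Col1a2 and Col4a2 lay peaks of 26 and 21 tags, over 10 kb from the ends.

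Adhesion and cytoskeleton genes counted 3 of 32. Vim had 16 tags over its start site, Pxn, the focal adhesion protein paxillin, had 23 tags 2.004 kb outside an end, and Syne1 had 3 peaks of 23, 48 and 36 tags. The centre of the Pxn peak lay inside another gene, Sirt4. The 23 tag peak of Syne1 lay 1.34 kb inside its higher-coordinate end. Deeper inside their genes were peaks of Cdh2, or N-cadherin (48 and 20 tags), Arhgap24 (25), Sdc2 (23) and Parva (20). In the smooth muscle and SRF list, 2 of 23 genes qualified, the calponins Cnn3 (18 tags) and Cnn2 (15 tags). YAP and TEAD genes counted 2 of 21, Ankrd1 and Amotl2, an angiomotin family member with 16 tags over its start site.

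Of 24 immediate early genes, 3 had a broad peak: Btg2 (17 tags, 7.88 kb away), Zfp36 (17 tags, 3.91 kb away) and Myc (13 tags, inside the gene). Btg2 restrains proliferation and Zfp36 encodes the messenger RNA decay factor tristetraprolin. Growth factor pathway genes counted 2 of 31, Igfbp5, an insulin-like growth factor binding protein (23 tags), and Pdgfrb, a platelet-derived growth factor receptor (26 tags). Ccnd1, or cyclin D1, was the 1 gene of 25 in the cell cycle list (13 tags), and the centre of its peak lay inside another gene, LTO1. Heyl, a Notch target, was the 1 of 26 Notch and Wnt genes and the 1 of 18 satellite cell genes (12 tags). Housekeeping genes counted 3 of 25, among them Eef1a1 (18 tags) and Rps6 (13), a share of 12% (2.55% to 31.2%) that overlapped the intervals of the muscle lists.

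No gene had a broad peak within 10 kb of an end in the TGF-beta and BMP list (0 of 28), the list of cardiac and GATA genes (0 of 28) and that of mesenchymal transition factors (0 of 26). Counts of 0 allow shares of up to 12.3%, 12.3% and 13.2% by the exact interval, above the 1.43% of all genes. Broad peaks did lie farther inside Tgfbr1 (25 tags), Smad1 (21) and Smad3 (26), a receptor and signal carriers of that pathway. Marker genes of other cell types also counted 0: 0 of 15 endothelial, 0 of 20 blood and immune and 0 of 20 neuronal genes. Peaks inside Tek (16 tags), on the endothelial and satellite cell lists, and Mbp (52 tags), on the neuronal list, lay over 10 kb from the ends. The remaining peaks of this kind were in the satellite cell gene Megf10 (32 tags), in Filip1l (28) and in Egfr (16).

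Several long genes held more than 1 broad peak. A protein coding gene hosted 337 broad peaks, or 46.4%, against 51.6% of other peaks. There were 300 such host genes, 32 of them with at least 2 broad peaks, and no matching count for other peaks is given here. Host genes were long, with a median of 103 kb against 17.2 kb over all protein coding genes, and weighed per peak the median host was 117 kb for broad and 109 kb for other peaks. Hivep2, a zinc finger gene, held 4 broad peaks among 11, with 18, 27, 32 and 27 tags. The phosphodiesterase gene Pde4d and the synapse scaffold gene Dlgap1 held 3 each, among 19 and 18 peaks.

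Most broad peaks had no other broad peak close by. Joined at gaps under 50 kb, the 726 peaks fell into 642 groups, of which 587 were single peaks and 45 were pairs. Another 6 groups had 3 or 4 members, and 4 groups had at least 5 and held 29 peaks in all. Those 4 lay on chromosomes 4, 6 and 8, and they account for the 15 genes with the most broad peaks within 10 kb. On chromosome 6 these were Gm40363 with 7, Gm40365 with 6 and Gm40367, Gm36327 and Gm40364 with 5 each. On chromosome 4 they were Gm13275 and Gm13279 with 6, Gm13285, Gm13287 and Gm13278 with 5, and Gm13272, Ifnz, Gm13276, Gm13288 and Gm13277 with 4. A stretch of 139 kb on chromosome 8 around Gm15319 held 7 broad peaks among 28.

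The Ifnz copies on chromosome 4 show what such a group looks like. Ifnz encodes interferon zeta, a type I interferon. Between positions 88773162 and 88806761 lay 13 peaks, of which 9 were broad and each of these 9 held an annotated start site. Printed to show how alike the copies are, 60 bases of the promoter windows of 3 of them (GRCm38.p6, plus strand) read as follows, with no capitals because no base differs among the related copies.
Gm13276: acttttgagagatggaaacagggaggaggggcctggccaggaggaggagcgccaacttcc
Gm13277: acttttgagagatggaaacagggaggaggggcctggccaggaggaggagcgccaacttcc
Gm13288: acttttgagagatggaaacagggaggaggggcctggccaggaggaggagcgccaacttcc

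These stretches lie at chr4:88784974-88785033, chr4:88787897-88787956 and chr4:88805451-88805510. The whole windows of Gm13276 and Gm13277 agreed at 300 of 300 bases, and that of Gm13288 at 299 of 300 with each. Their peaks held 36 tags (25.2 to 49.8), 15 (8.4 to 24.7) and 31 (21.1 to 44.0), so Gm13276 and Gm13277 did not overlap in their counting intervals. The windows of Gm13285 and Gm13287 were identical too, with 35 and 39 tags. Gm13290 and Gm13279, identical over 300 bases, held 32 and 19 tags. Widths recurred, with 3 peaks of 1559 bp and 2 of 1539 bp among the 9. How reads that match several copies were placed was not given in the sources used here, and its part in these values was not tested. None of the 9 windows whose start sites lay in broad peaks here held a GATA core.

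Of 1005 microRNA hairpins in the RefSeq table, 178 lay within 10 kb of a peak of any width and 8 (0.796%) within 10 kb of a broad one. Over the whole list 4.14% of peaks were broad, so these counts are not read as a link between broad peaks and hairpins. The hairpins below stand as examples. Mir21a, whose product is abundant in growing and injured tissues, was the 1 hairpin with a broad peak on either side. The mature miR-21a-5p is shown with its seed, bases 2 to 8, in capitals.
mmu-miR-21a-5p: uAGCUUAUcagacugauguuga

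The hairpin lies at chr11:86584067-86584158 on the minus strand, at the 3′ end of Vmp1. Broad peaks of 2431 bp (30 tags) and 1372 bp (23 tags) lay 0.75 and 2.25 kb from it, measured edge to edge. The hairpin itself was inside a peak of 669 bp with a score of 56.5. The Mir688 hairpin lay within a broad peak of 1485 bp with 17 tags that also held the start site of Atp5g2, a subunit gene of ATP synthase. Mir196a-2, a microRNA of the Hox clusters, lay 6.18 kb from a broad peak of 15 tags. The other 5 were Gm51273 (0.032 kb), Mir7653 (1.18 kb), Mir7052 (2.20 kb), Mir6516 (3.21 kb) and Mir6910 (7.72 kb).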

How the data were processed

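ChIP-seq of GATA4 and of control IgG was done in 1 library each. Per the labels' protocols, chromatin was fixed with 1% formaldehyde, sheared to 200 to 500 bp and sequenced as paired 150 bp reads. CASAVA 1.8 and Bowtie are named in the submitters' processing notes with the build GRCm38 (mm10). Per the file headers, the authors called peaks with MACS in Galaxy and deposited a score per peak. The MACS version, threshold, duplicate handling and use of the IgG library were not given in the sources used here, and read counts of either library were not analysed here.

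Peaks were kept as broad at 1300 bp or more, and starts were made 1-based. Centres were set against RefSeq genes and promoter windows of GRCm38.p6, so distances to genes run from peak centres. Distances to hairpins of the same build run from edge to edge. The work used python 3.11.15, numpy 2.4.6, pandas 2.3.3 and scipy 1.17.1. Promoter windows of chromosome 18, with 25 broad peaks, were not used here, so start site shares use 701 peaks. All 453 list symbols matched. Tags were read from the scores with a Poisson rate fitted on every 25th peak of 700 bp or more, and the reading was tested on simulated data. Shares have exact 95% intervals and tag numbers exact Poisson intervals. No test was run, because there is 1 library and the rule used the peak call. The members and lists were chosen with earlier results of these data known.

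Named are the 20 widest, the 10 highest and the 5 lowest scoring broad peaks, listed genes with a broad peak inside or within 10 kb, up to 15 genes with at least 2, and the 3 peaks on either side of the threshold. A few items that this rule covers are not reported here. Start site genes, hairpins and hosts were named after their values were seen. Alternatives were other widths, windows, gene classes and motifs, and leaving out chromosome 10. Leaving out the 4 groups of 5 or more broad peaks was chosen after seeing the data.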

Additional observations from a re-analysis of the deposited data

How the results depend on the processing

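Of 31 alternative settings over 7 results, 18 were labelled the same as the reported value and 13 as moved. Shares outside their counting interval were labelled moved even where they lay within 1.5 times of the reported one. So was the median score at 1500 bp. The number of broad peaks, 726, was 1224 at 1200 bp and 279 at 1500 bp, where their median score was 234 in place of 196. The gene end share of 15.2% was 9.64% within 500 bp, 32.9% within 5 kb, 11.98% for protein coding genes and 21.1% where the peak interval had to touch the window. The other peaks gave 10.3%, 31.1%, 10.5% and 15.9% under the same settings. The neighbour share of 39.3% was 50.7% within 10 kb, against 38.2% of other peaks. The 23 listed genes became 10 within 1 kb, 49 within 50 kb, 40 over the gene span with 10 kb, and 10 at 1500 bp, by the wider or narrower windows and sets themselves. As shares of the listed genes the 3 windows gave 2.21%, 10.8% and 8.83%, against 0.434%, 4.46% and 2.29% of all protein coding genes. The motif share of 35.9% was 59.0% for the GATA core. The share on chromosome 10 stayed between 14.3% and 16.1% in all 4 of its settings.

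Without the 4 groups of 5 or more broad peaks, 697 peaks remained, the gene end share was 13.9%, the neighbour share 36.9% and the motif share 39.4%. No paired analysis was possible because each antibody has 1 library. Tag numbers of 9 to 68 per broad peak limit the precision of each score, and reproducibility between libraries could not be measured.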
